A study of Homo sapiens with 372 samples.

Results

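The chaperonin CCT, also called TRiC, was described here through the messenger RNAs of its 8 subunits, TCP1, CCT2, CCT3, CCT4, CCT5, CCT6A, CCT7 and CCT8. The genes were chosen by name, and all 8 of them were among the 9664 genes listed in the expression table. The table holds single cells of A2780, an established human ovarian cancer cell line, profiled by Smart-seq2, which copies full-length polyA-tailed RNA, after capture on the Fluidigm C1 system. The study asked how the transcriptomes of these cells differ after paclitaxel, celecoxib or both. Control cells (Ctrl) were left without drug and gave 46 cells. Paclitaxel, which stabilizes microtubules, was given at 5 nM for 16 h (Pac16h, 56 cells) or 48 h (Pac48h, 53 cells). Celecoxib, a cyclooxygenase inhibitor, was given at 75 µM for 2 h (Cele2h, 63 cells) or 16 h (cele16h, 61 cells). The combination used 5 nM paclitaxel and 75 µM celecoxib together for 16 h (PacCele16h, 59 cells).

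CCT is a double-ringed, ATP-driven folding machine of the cytosol in which each ring is built from one copy of each subunit. It folds newly made actin and tubulin, the building blocks of microfilaments and microtubules, and a set of WD40-repeat proteins that includes the mitotic activator CDC20. Prefoldin hands unfolded actin and tubulin to CCT, phosducin-like proteins bind CCT as cofactors, and the tubulin folding cofactors take tubulin over once it leaves the chamber. The subunits are paralogs that share an ATPase domain and differ in the apical domains that touch the client. Paclitaxel binds the beta-tubulin that CCT folds.

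The labels carry 1 library code per condition, read here as 1 capture run, and name no replicate cultures, so each condition counted as 1 sample and no test between conditions was made. SDs below are spreads over cells. The E-value of a gene is log2(N/10 + 1), where N is its TPM after scaling to the highest spike-in RNA of the same cell. On this deposited scale a cell with a lower sum of N has lower values for most genes. The ratio of the median sum to that of control cells was 0.50 in Pac16h, 0.64 in Pac48h, 0.59 in Cele2h, 0.35 in cele16h and 1.40 in PacCele16h. The sum was removed in another pair of quantities, the share of a gene in the summed N of its cell, in ppm, and the E-value recomputed with an equal sum in all cells (the same total). Less RNA per cell and more spike-in RNA recovered could not be told apart. Genes whose mean E-value lay more than log2 of 1.5, or 0.58, from the mean of the reference cells are called up- or down-regulated. The median number of genes detected ran from 6126 to 6630 per cell over the 6 conditions, and read depth is unknown. Library indices fell in 4 blocks, and 4 of the conditions used 1 block each, so that the condition, its run and its block could mostly not be told apart. Of 16 markers of epithelial, ovarian carcinoma, fibroblast, leukocyte and endothelial cells, 3 were listed (KRT18, COL1A2 and LUM). KRT18, the only epithelial one of 5, was detected in 23.9 to 36.5% of cells. COL1A2 and LUM, both of the fibroblast list, were detected in 10.7 to 32.8% and 10.2 to 29.5% of cells. The ovarian carcinoma label therefore rests on the cell line's name and not on its defining markers.

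The 8 genes lie on 7 chromosomes of hg38, and only CCT4 and CCT7 share one. TCP1 covers chr6:159778498-159789703 on the minus strand, CCT2 chr12:69585426-69601570 on the plus strand, CCT3 chr1:156308968-156367873 on the minus strand and CCT4 chr2:61868085-61888671 on the minus strand. CCT5 covers chr5:10249929-10266389, CCT6A chr7:56051685-56063989 and CCT7 chr2:73233420-73253021, each on the plus strand, and CCT8 covers chr21:29055805-29073797 on the minus strand. Their proteins are alike in length, from 531 residues (CCT6A) to 556 residues (TCP1), as coded by the canonical transcripts of GENCODE version 44. Named pseudogenes of all subunits but CCT2 are annotated, from 1 each for CCT3 and CCT8 to 4 for CCT6A, and none of them was listed in the table. How the reads of such copies were divided is uncertain.

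The promoters of the subunit genes were read for shared motifs. Whether the genes share control through them was not tested. RefSeq promoter windows (GRCh38.p14) of 7 subunits were found, and CCT6A had no entry. Of these, 6 started within 100 bases of the canonical start and were searched over the 250 bases before it, on both strands. That of CCT5 lay 257 bases away and was left out. CCT2 and CCT4 had a further window each, and only the window nearest the canonical start was counted. The background kept all windows of a gene. The CCAAT box, CCAAT or ATTGG, was found in 4 of the 6 (TCP1, CCT2, CCT3 and CCT8), as it was in 32.0% of 35116 promoter windows. The following 80-base stretches upstream of the start, in which no annotated exon lies, are shown because they carry this box, in capitals. They run 5′ to 3′ in the direction of the gene, from chr12:69585331-69585410 (CCT2, plus strand), chr1:156338325-156338404 (CCT3, minus strand, inside an intron of TSACC on the other strand) and chr6:159789714-159789793 (TCP1, minus strand).
CCT2: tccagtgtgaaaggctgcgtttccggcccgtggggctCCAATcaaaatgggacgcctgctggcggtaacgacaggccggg
CCT3: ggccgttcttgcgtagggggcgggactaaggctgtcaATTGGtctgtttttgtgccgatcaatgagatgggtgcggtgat
TCP1: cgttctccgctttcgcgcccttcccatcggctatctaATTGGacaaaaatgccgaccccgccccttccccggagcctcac
The box lay 91 to 87 bases before the start in CCT2, 75 to 71 in CCT3 (which has another at 34 to 30, not in the stretch shown) and 154 to 150 in TCP1. The GC box GGGCGG was found in 4 of the 6 (TCP1, CCT2, CCT3 and CCT8) against 42.6% of all windows, and the cyclic AMP response half-site TGACG in 4 (TCP1, CCT2, CCT4 and CCT8) against 21.2%. The ETS core CGGAAG was found in 3 (TCP1, CCT2 and CCT7) against 16.5%. The heat shock dyad GAANNTTC was found in TCP1 alone of the 6 against 5.78%, and the E-box CACGTG in none of the 6 against 6.34%. The further window of CCT2, 430 bases from the canonical start and not counted, also held a heat shock dyad (GAAATTTC). A match is a description of the letters in these windows and not a bound site.

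In control cells the 8 subunits were among the more abundant messages. Over all conditions, between 91.2 and 97.9% of the listed genes had a lower mean E-value than a given subunit. The 8 together made up a median of 5302 ppm of the summed N of a control cell (lowest 2916, highest 6228, SD 905). Of 2704 subunit E-values in 338 cells, 6 were 0: TCP1 in 1 cell of Pac48h and 3 of cele16h, CCT2 in 1 of Pac16h and CCT7 in 1 of Cele2h. TCP1 was therefore detected in 95.1% of cele16h cells (exact Clopper-Pearson interval 86.3 to 99.0%, covering counting error only).

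The share of CCT messages was lower than in control cells after every treatment. It was 4112 ppm at 16 h of paclitaxel (lowest 2497, highest 6798, SD 832) and 3764 at 48 h (2297 to 5916, SD 857). It was 3524 at 2 h of celecoxib (2221 to 5643, SD 629) and 3755 at 16 h (1928 to 6266, SD 734). With the combination it was 3727 (1892 to 5665, SD 799). Relative to the control median these are ratios of 0.775, 0.710, 0.665, 0.708 and 0.703. The lowest median came at 2 h of celecoxib, and the shares of the other treated conditions overlapped it widely.

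The ranges of treated and control cells overlapped in every comparison, while most treated cells lay under the control median. At 16 h of paclitaxel 50 of 56 cells did (89.3%, exact interval 78.1 to 96.0%), and at 48 h 51 of 53 (96.2%, 87.0 to 99.5%). At 2 h of celecoxib 62 of 63 cells did (98.4%, 91.5 to 100.0%), at 16 h 60 of 61 (98.4%, 91.2 to 100.0%), and with the combination 56 of 59 (94.9%, 85.9 to 98.9%). Cells under the 10th percentile of control cells, 3751 ppm, numbered 5 of 46 in control, 18 of 56 in Pac16h, 26 of 53 in Pac48h, 44 of 63 in Cele2h, 30 of 61 in cele16h and 30 of 59 in PacCele16h. These intervals cover counting of cells and not the difference between cultures.

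**Figure D1:**
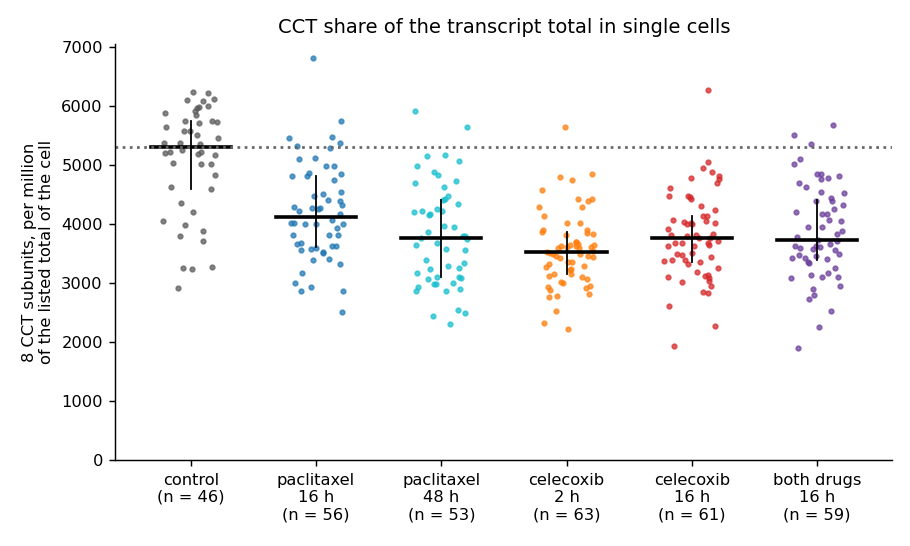
Share of the 8 CCT subunit messages in the summed N of each cell (vertical axis, ppm) for the 6 conditions, with 1 point per cell, a bar at the median, a vertical line over the quartiles and a dotted line at the control median. The control median of 5302 lies above the upper quartile of each treated condition, and the points of all conditions overlap.

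In 2 conditions cells came from 2 index blocks, which gave a value within a block. The 31 Pac48h cells of block 4, the block of all control cells, had a median share of 3797 ppm, and the 22 of block 2 had 3489. All Cele2h cells are in block 2 as well, and with 3524 they were not the lower of both conditions within that block. The 34 PacCele16h cells of block 1 had 4057 and the 25 of block 3 had 3599. Each of these medians was below the control median of 5302.

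The amount of CCT message on the deposited scale gave another order of the treatments, since the totals differed. The summed N of the 8 subunits had a median of 8275 per control cell, and ratios to it of 0.368 (Pac16h), 0.439 (Pac48h), 0.415 (Cele2h) and 0.259 (cele16h). With the combination the ratio was 0.969. CCT messages per cell were thus near the control amount with both drugs, in cells whose total was 1.40-fold that of control cells. The mean E-value of the 8 subunits followed the cell's log2 total closely across the cells of a condition (Pearson's r from 0.85 to 0.95). That is a description over 46 to 63 cells of 1 condition, which share the spike-in scaling. The share followed the log2 total less (r = 0.57 in control cells and 0.06 to 0.33 in treated cells).

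At 16 h of paclitaxel, 8 of 8 subunits were down-regulated on the deposited scale, with a median difference of -1.16. The background was high, as 37.3% of 9655 genes tested were counted down, and 75.1% of the 688 genes at or above the lowest subunit in mean E-value over all cells. With totals set equal, 1 of 8 was counted down (10.0% of all genes and 9.16% of the abundant genes). This was CCT3, the subunit with the largest difference on both scales (-1.44 deposited, -0.64 at the same total). The median of the 8 at the same total was -0.37, beside -0.07 for all genes and -0.01 for the abundant genes. CCT5 and CCT8 lay closest to control at the same total, with differences of -0.12 and -0.13.

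At 48 h of paclitaxel, 8 of 8 were again counted down on the deposited scale, against 26.6% of all genes and 68.0% of the abundant genes, and the median of the 8 was -1.06. With totals set equal 3 of 8 were counted down, TCP1 (-0.93), CCT6A (-0.69) and CCT2 (-0.59), against 5.78% of all genes and 10.2% of the abundant genes. The others ranged from -0.45 (CCT7) to -0.30 (CCT8). The median of the 8 was -0.45, beside 0.00 for all genes and -0.12 for the abundant genes. Set directly against 16 h, the median difference was -0.05 on the deposited scale and, with totals set equal, -0.22. No subunit passed the limit on either scale, where 0.352% and 1.18% of all genes were counted down and 7.89% and 6.18% up. TCP1 had the lowest of these differences at the same total, -0.50, and CCT3 the highest, 0.20.

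At 2 h of celecoxib, 8 of 8 were counted down on the deposited scale, against 25.7% of all genes and 54.7% of the abundant genes, with a median of -1.20. Rescaled to the same total, 4 of 8 were counted down, TCP1 (-0.76), CCT4 (-0.70), CCT6A (-0.69) and CCT7 (-0.69), against 8.12% of all genes and 11.2% of the abundant genes. CCT5 had the smallest difference on both scales (-0.90 and -0.33). The median of the 8 at the same total, -0.63, was the lowest of the 5 treatments, beside -0.07 for the abundant genes.

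At 16 h of celecoxib the differences on the deposited scale were the largest, ranging from -2.27 (CCT2) to -1.60 (CCT7). The median of the 8 was -1.90, beside -1.57 for the abundant genes. All 8 were counted down, as were 43.9% of all genes and 96.9% of the abundant genes, so the count itself is close to that of abundant genes. With totals set equal 4 of 8 were counted down, CCT2 (-0.93), TCP1 (-0.92), CCT6A (-0.68) and CCT4 (-0.64), against 7.95% of all genes and 22.4% of the abundant genes. CCT7 was nearest to control, at -0.24. The median of the 8 at the same total was -0.53, beside 0.03 for all genes and -0.22 for the abundant genes. Against 2 h, 7 of 8 were counted down on the deposited scale (19.4% of all genes and 77.5% of the abundant genes), with CCT7 at -0.35. The median of the 8 was -0.75, beside -0.95 for the abundant genes. At the same total the median of the 8 against 2 h was 0.04 and no subunit passed the limit (3.9% of all genes were counted down and 7.88% up).

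With the combination 0 of 8 were counted up on the deposited scale, where 30.4% of all genes and 52.6% of the abundant genes were. The differences were -0.12 (CCT6A), -0.02 (CCT2), -0.00 (TCP1 and CCT3), 0.28 (CCT7), 0.48 (CCT4), 0.49 (CCT8) and 0.50 (CCT5). Their median of 0.14 lay beside 0.33 for all genes and 0.61 for the abundant genes. In the cells of index block 1 alone, CCT4 (0.60) and CCT5 (0.63) passed the limit. Rescaled to the same total, 4 of 8 were counted down, CCT6A (-0.80), CCT2 (-0.70), CCT3 (-0.68) and TCP1 (-0.67), against 5.8% of all genes and 10.9% of the abundant genes. CCT5, CCT8 and CCT4 lay at -0.19, -0.20 and -0.21. CCT7, at -0.41, lay between these and the 4 that were counted down. The median of the 8 at the same total was -0.54, beside 0.02 for all genes and -0.07 for the abundant genes.

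**Figure D2:**
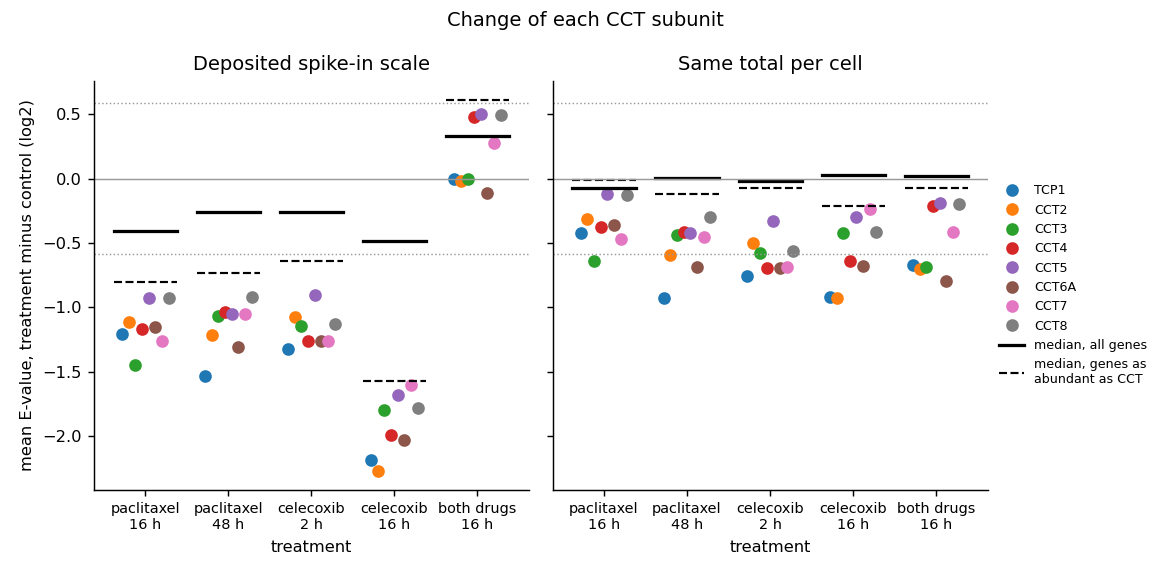
Difference of each subunit's mean E-value from control cells (vertical axis, log2 units) in the 5 treatments, 1 point per subunit, as deposited and at the same total. The solid line marks the median of all genes tested, the dashed line that of the 688 genes as abundant as CCT, and the dotted lines the limit of log2 1.5. All 40 values at the same total lie below 0.

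Compared directly with each single drug at 16 h, the combination gave higher subunit levels on the deposited scale. Against Pac16h all 8 were counted up (1.04 to 1.64, median 1.43), as were 62.5% of all genes and 99.7% of the abundant genes. Against cele16h all 8 were counted up (median 2.18, highest 2.47), as were 66.0% of all genes and 100% of the abundant genes. The abundant genes had medians of 1.42 and 2.20, near those of CCT. The CCT medians at the same total were -0.07 and 0.16. On that scale 0 of 8 were counted down (1.64% and 4.39% of all genes) and 0 of 8 up (9.57% and 5.03% of all genes). Of the abundant genes 6.1% and 12.2% were counted up. The combination and the single drugs thus differed in CCT messages on the deposited scale, by amounts that left no subunit past the limit once the totals were set equal. The 5 comparisons with control share the same control cells, and the values of one are not independent of those of another.

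TCP1, the first subunit described and the namesake of the family, was the least abundant of the 8 in each condition by median share. TPM is per transcript length, so shares can be set side by side between genes. In control cells TCP1 had a median of 387 ppm (lowest 65.6, highest 659.6). It had 283 in Pac16h (42.8 to 872), 204 in Pac48h (0 to 674) and 207 in Cele2h (70.0 to 513). It had 234 in cele16h (0 to 629) and 231 in PacCele16h (27.6 to 572). The cells of all conditions overlapped, and TCP1 was the lowest subunit within the cell in 24 to 35 cells per condition, 30 of 46 control cells among them.

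CCT5 was the most abundant by median share in each condition. It had 961 ppm in control cells (197 to 1551), 872 in Pac16h (269.9 to 2357) and 719.9 in Pac48h (33.1 to 1467). It had 708 in Cele2h (192 to 1712), 773 in cele16h (281 to 1921) and 819 in PacCele16h (327 to 1971). Its highest treated cells exceeded the highest control cell in 4 of 5 treatments, Pac48h being the exception. Within single cells it was the highest subunit in 24 of 46 control cells and in 25 to 39 cells of the treated conditions.

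CCT3 ranked next in control cells, at 891 ppm (94.9 to 1406). Its share was 522 in Pac16h (205 to 1575), 541 in PacCele16h (28.8 to 1006) and 583 in Cele2h (142 to 1178). It was 648 in cele16h (116 to 1305) and 665 in Pac48h (1.42 to 1213). CCT8 ranked above it at 16 h of paclitaxel (629.5 ppm) and with the combination (568 ppm), by less than the spread over cells.

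CCT2 had its lowest median shares in cells given celecoxib for 16 h, with or without paclitaxel, and CCT6A had like values there and at 48 h of paclitaxel. CCT2 had 534 ppm in control cells (259 to 913), 479 in Pac16h (0 to 914), 370.3 in Pac48h (62.5 to 714) and 390.2 in Cele2h (125 to 840.0). It had 301 in cele16h (34.9 to 749.9) and 336 in PacCele16h (167 to 616). CCT6A had 512 in control cells (299 to 876), 399.9 in Pac16h (119 to 1159), 313 in Pac48h (117 to 589) and 337 in Cele2h (78.9 to 754). It had 316 in cele16h (125 to 625) and 302 in PacCele16h (68.2 to 577). These 3 low medians of CCT6A lay within the spread over cells of each other.

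CCT4, CCT7 and CCT8 lay between these. CCT4 had a median of 524 ppm in control cells (205 to 818), its lowest treated median was 311 in cele16h (101 to 863) and its highest 444 in PacCele16h (151 to 1111). CCT7 had 627 in control cells (311 to 1138), its lowest was 421 in Cele2h (0 to 985) and its highest 565 in cele16h (95.8 to 1353). CCT8 had 660.0 in control cells (221 to 1000.4), its lowest was 455 in cele16h (143 to 1162) and its highest 629.5 in Pac16h (147 to 1299). The middle of the order changed places between conditions by less than the spread over cells.

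The makeup of the 8 messages within a cell was also compared, since each ring of the complex takes one of each. In control cells the median percent of the 8 was 18.4 for CCT5, 17.4 for CCT3, 13.0 for CCT7, 12.1 for CCT8, 11.0 for CCT2, 10.4 for CCT6A, 10.0 for CCT4 and 7.24 for TCP1. CCT5 took a larger part in each treatment, from 20.5 to 21.9%, and TCP1 a smaller one, from 5.47 to 6.78%. CCT3 made up 12.9% in Pac16h and 14.2% in PacCele16h. CCT2 made up 7.86% in cele16h and 8.43% in PacCele16h. CCT4 had its lowest part in cele16h (7.79%) and its highest in PacCele16h (11.6%). The ratio of the highest to the lowest subunit in a cell had a median of 3.16 in control cells, 4.17 in Pac16h, 4.82 in Pac48h, 4.71 in Cele2h, 5.50 in cele16h and 4.68 in PacCele16h. The median number of genes detected was also lower in each treated condition than in control cells, and the part of sampling depth in this ratio was not tested.

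**Figure D3:**
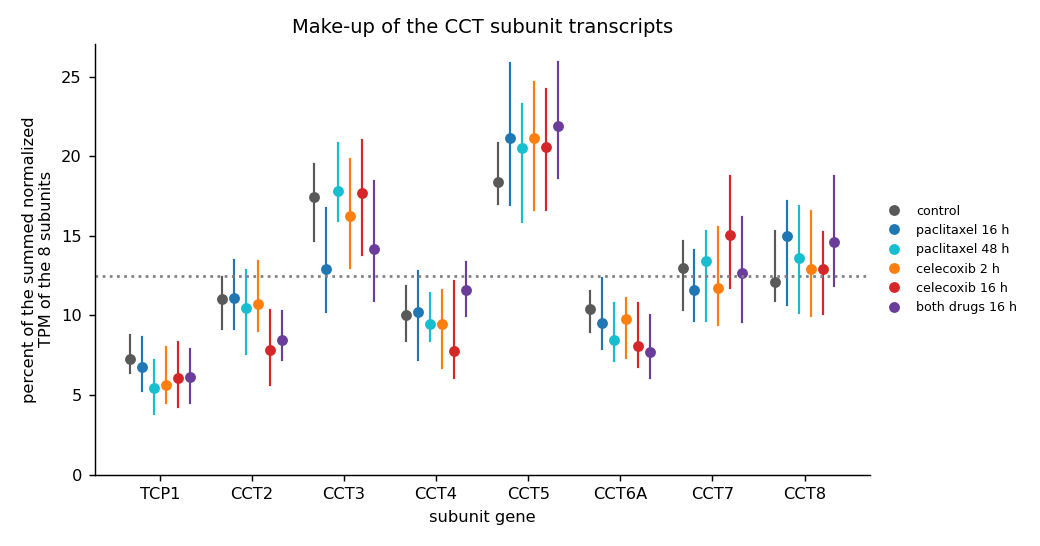
Median percent of each subunit among the 8 CCT messages of a cell (vertical axis, percent) in the 6 conditions, with vertical lines over the quartiles of cells and a dotted line at an equal split. CCT5 lies highest and TCP1 lowest in each condition, and CCT3 is at 12.9% in Pac16h against 17.4% in control cells.

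How far the subunits varied together from cell to cell was described by Pearson's r between each of 28 pairs. On the deposited scale the median r was 0.77 in control cells, 0.62 in Pac16h, 0.53 in Pac48h, 0.50 in Cele2h, 0.36 in cele16h and 0.60 in PacCele16h. After the totals were set equal it was 0.30, 0.09, 0.19, 0.05, 0.05 and 0.14 in that order. Pairs with r above 0 numbered 26, 16, 25, 19, 18 and 27 of 28. Most of the covariation on the deposited scale was thus shared with the total, and the remainder was weak in treated cells. The points are 46 to 63 cells of 1 condition each, whose depth and spike-in scaling are shared by all genes.

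Of the pairs at the same total, CCT2 and CCT4 had the highest mean r over the 6 conditions, 0.32 (0.13 to 0.53). In control cells CCT4 and CCT5 had the highest r, 0.64. CCT4 also followed the mean of the other 7 subunits most closely (mean r 0.43, from 0.24 in Pac16h to 0.69 in control cells), and CCT7 least (0.17, from 0.02 to 0.32).

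**Figure D4:**
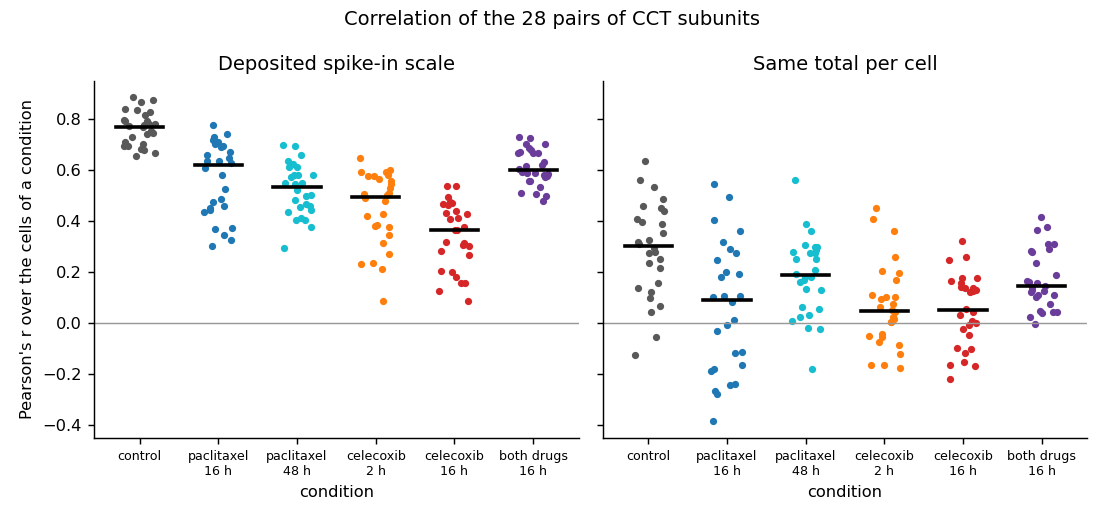
Pearson's r over the cells of a condition (vertical axis) for the 28 pairs of subunits, with 1 point per pair and a bar at the median, on the deposited scale (left) and with equal totals (right). Control cells have the highest median on both, 0.77 and 0.30, and on the right Cele2h and cele16h have the lowest, 0.05.

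The genes whose cell-to-cell pattern was most like the mean of the 8 subunits at the same total were RAN, CYCS, CACYBP, HSPA8 and EIF5A, among 5360 genes with a value above 0 in 50% or more of the cells of each condition. RAN, the GTPase of nuclear transport, had a mean r of 0.48 over the 6 conditions (0.16 to 0.70). CYCS, which encodes cytochrome c, had 0.45 (0.32 to 0.59), and CACYBP 0.45 (0.32 to 0.57). HSPA8, the constitutive cytosolic Hsp70, had 0.44 (0.28 to 0.63), and EIF5A, a translation factor, 0.42 (0.18 to 0.62). The genes were ranked on these same cells, which makes the values a description.

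Upstream of CCT, the summed share of the 6 prefoldin genes lay nearer to control than that of CCT in each treatment. Its ratios to control were 1.08 (Pac16h), 0.99 (Pac48h), 0.98 (Cele2h), 0.82 (cele16h) and 0.94 (PacCele16h), beside 0.775, 0.710, 0.665, 0.708 and 0.703 for CCT. At the same total, 0 of 6 passed the limit except in cele16h, where VBP1 was down-regulated (-0.69). The 4 genes for CCT-binding cofactors (PDCL, PDCL3, TXNDC9 and PDCD5) had ratios of 1.12, 0.74, 0.94, 0.72 and 0.84. PDCD5 weighs most in this sum, with a control mean E-value of 7.02 beside 3.71 for TXNDC9, the next. The median differences of the 4 genes at the same total were -0.31, -0.46, -0.33, -0.28 and -0.30. Of these 4, the number counted down at the same total was 1, 1, 2, 1 and 0 in the order of the treatments, and none was counted up. They were the phosducin-like protein PDCL3 in Pac16h (-0.59), Pac48h (-0.70) and Cele2h (-0.62), TXNDC9 in Cele2h (-0.73) and PDCD5 in cele16h (-0.63). The share of all genes counted down on that scale was 10.0, 5.78, 8.12, 7.95 and 5.8%, and the share counted up 1.4, 3.28, 3.31, 7.37 and 5.96%, which is the background for each list here.

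Downstream of CCT, the 6 tubulin folding cofactors had ratios of 1.23, 1.16, 1.23, 0.99 and 1.27. These are ratios of summed shares, in which the most abundant members, TBCA and TBCB, weigh most. The median differences of the 6 genes at the same total were -0.01, 0.06, -0.01, 0.00 and 0.30. At the same total 1 of 6 was counted up and 1 down in Pac16h and in Cele2h, and none passed the limit in the other treatments. The member counted up was TBCA, which binds beta-tubulin (0.68 and 0.77), and the one counted down was TBCC (-0.79 and -0.62). With the combination 5 of 6 were counted up on the deposited scale, from 0.69 (TBCD) to 1.23 (TBCA), where 30.4% of all genes and 52.6% of the abundant genes were, and 0 of 6 were at the same total.

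Among the clients of CCT, the actins had lower share ratios than the chaperonin in each treatment. The tubulins had lower ratios than CCT only after celecoxib alone, and higher ones in the other treatments. Actin messages (ACTB and ACTG1) had share ratios of 0.45, 0.57, 0.45, 0.59 and 0.52, and both were counted down at the same total in each treatment, with differences from -1.18 (ACTB, Pac16h) to -0.59 (ACTB, cele16h). The 11 tubulins listed of 12 had ratios of 0.79, 0.83, 0.44, 0.31 and 0.80. Celecoxib alone gave the lowest tubulin values, with 6 of 11 counted down at the same total at both times (8.12% of all genes at 2 h and 7.95% at 16 h, and 11.2% and 22.4% of the abundant genes) and TUBA1B, the major alpha-tubulin, at -1.44 at 2 h and -2.03 at 16 h. TUBA1A went the other way in Pac48h (1.08) and PacCele16h (1.14). Of 12 other clients listed, 4, 2, 2, 3 and 2 were counted down at the same total in the order of the treatments, and their medians were -0.37, -0.10, -0.12, -0.03 and 0.00. CDC20 and PLK1, both of mitosis, were counted down in each treatment, and in Pac48h, Cele2h and PacCele16h the other 10 did not pass the limit. MLST8 was counted up in cele16h (1.03). CDC20 had differences of -1.81, -2.08, -2.55, -2.23 and -2.82, and PLK1 of -1.45, -1.89, -1.62, -1.71 and -1.93. TUBA4A, RPTOR and CCT6B, a testis-specific relative of CCT6A, were among those looked for and not listed.

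Among other chaperones, the 7 genes of cytosolic Hsp70 and Hsp90 had share ratios of 0.66, 0.61, 0.54, 0.68 and 0.57, and the mitochondrial chaperonin (HSPD1 and HSPE1), the distant relative of CCT in the matrix, 1.02, 0.70, 0.65, 0.55 and 0.76. At the same total, 4, 6, 5, 3 and 3 of the 7 Hsp70 and Hsp90 genes were counted down (10.0, 5.78, 8.12, 7.95 and 5.8% of all genes, and 9.16, 10.2, 11.2, 22.4 and 10.9% of the abundant genes), with HSPA8 lowest in Pac16h (-1.49) and nearest to control of the 7 in cele16h (-0.13). The 14 genes of the 20S proteasome core, another ring-shaped complex, had ratios of 0.93, 0.70, 0.70, 0.54 and 0.71. The lower share was therefore not particular to CCT by these values, and the lists were not tested against each other.

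**Figure D5:**
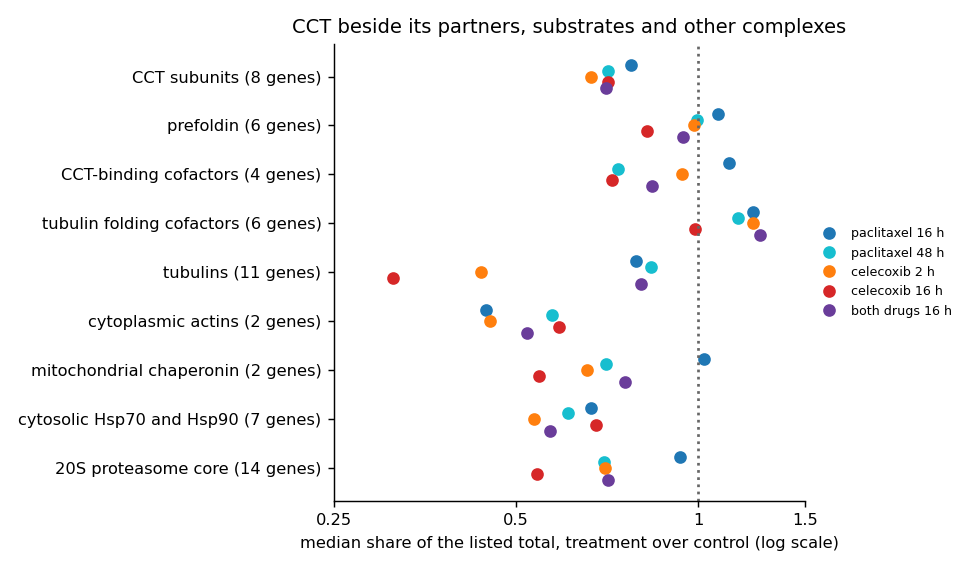
Ratio of the summed share of each gene list to that of control cells (horizontal axis, log scale) in the 5 treatments, with 1 point per treatment and a dotted line at 1. CCT lies between 0.665 and 0.775, the actins lie between 0.45 and 0.59, and the tubulin folding cofactors between 0.99 and 1.27. The most abundant members of a list weigh most in its summed share.

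Several subunit genes share their start region or their body with another gene, and these neighbours were read beside them at the same total. ACAT2, an acetyl-CoA acetyltransferase gene, overlaps the 3′ end of TCP1 by 615 bases on the other strand. Smart-seq2 does not keep the strand, so reads in the overlap cannot be told apart. ACAT2 had differences of -1.16, -1.16, -1.08, -1.78 and -1.27 in the order of the treatments, and TCP1 of -0.42, -0.93, -0.76, -0.92 and -0.67. TSACC overlaps CCT3 by 9682 bases on the other strand and had mean E-values of 0.25 to 0.69, beside 5.07 to 6.87 for CCT3.

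Protein-coding genes start within 1000 bases and head to head with TCP1, CCT4, CCT5, CCT6A and CCT7. PSPH, the phosphatase of the last step of serine synthesis, starts 81 bases from CCT6A. Its differences were 0.16, 0.53, 1.12, 1.39 and 1.02, while those of CCT6A were -0.36, -0.69, -0.69, -0.68 and -0.80. These neighbours thus lay on opposite sides of 0 in each treatment. COMMD1, 53 bases from CCT4, had 0.12, 0.19, 0.18, -0.18 and 0.19 beside -0.38, -0.41, -0.70, -0.64 and -0.21 for CCT4. MRPL18, a mitochondrial ribosomal protein gene 109 bases from TCP1, had -0.23, -0.53, -0.42, -0.33 and -0.32. PRADC1, 181 bases from CCT7, had -1.02, -0.59, -0.75, -0.67 and -0.66, and ATPSCKMT, 32 bases from CCT5, had -0.20, 0.02, -0.35, -0.20 and -0.14. Neighbouring starts thus did not share 1 direction, and distances were taken between the outermost annotated gene ends.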

How the data were processed

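Single A2780 cells captured on the C1 system were profiled by Smart-seq2. Per the methods of the study and the submitters' processing notes, reads were trimmed with Trim Galore and quantified with RSEM 1.3.0 and Bowtie2 on hg38 transcripts with 3 spike-in RNAs. The authors divided TPM values by the most abundant spike-in RNA found in the cell, left out cells of low quality, and deposited log2 values, E = log2(N/10 + 1), to 3 decimals for 9664 genes and 338 of 372 labelled cells. All cell columns were mapped to samples. The authors' deposited state of each cell was not used. Reads per cell are unknown, so depth is given as genes detected.

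N was recovered from E, and mean E-values over cells were compared between conditions with a limit of 1.5-fold over 9655 genes with a value above 0 in over 30% of a condition's cells. With 1 sample per condition no test was made. Intervals for shares of cells are exact (Clopper-Pearson, 95%). The genes named are the 8 subunits, their neighbours, the extreme members of the related lists, and the 5 most alike in pattern. Other list members (such as PLK1 and PDCL3) and the CCAAT sequences shown were chosen after their values or matches were seen. The members and lists were chosen with earlier results of these data known. Alternatives tried were an equal total in all cells, a ratio of linear means, medians, a pseudocount of 1 in place of 10, other detection limits, totals without the 50 most abundant genes, single index blocks, and leaving out wells noted as 0 or debris. The background of genes as abundant as CCT was added after seeing the data. Steps were tested on simulated data. Positions are from GENCODE version 44, which matched 9643 of 9664 identifiers. Software was R 4.3.3 with Seurat 5.3.0, and Python 3.11.15 with matplotlib 3.10.9, scipy 1.17.1, numpy 2.4.6 and pandas 2.3.3.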

Additional observations from a re-analysis of the deposited data

How the results depend on the processing

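Of the CCT medians, counts and shares, 116 values under the alternatives moved by less than the spread over cells (counts by at most 1.5-fold). Another 14 moved further and 2 reversed, most of these with the scaling. A median was called reversed only where its reported value passed the limit. The combination median against control, which turned sign at the same total, is therefore among the 116, as are the smaller Pac16h and Pac48h medians. At the same total per cell the subunits counted down against control numbered 1 (Pac16h), 3 (Pac48h), 4 (Cele2h) and 4 (cele16h) in place of 8, and the cele16h median was -0.53 in place of -1.90. For the combination against Pac16h the median became -0.067 with a count of 0, against cele16h 0.16 with a count of 0, and for cele16h against Cele2h 0.044 with a count of 0. For the combination against control the median went from 0.14 to -0.54, with CCT4 (-0.21), CCT5 (-0.19), CCT7 (-0.41) and CCT8 (-0.20) turning sign and 4 subunits counted down in place of 0. The Pac16h and Pac48h medians went from -1.16 to -0.37 and from -1.06 to -0.45. The subunits past the limit that turned sign were, for the combination against Pac16h, TCP1 (-0.25), CCT2 (-0.39), CCT3 (-0.042), CCT5 (-0.067), CCT6A (-0.43) and CCT8 (-0.068). Against cele16h they were CCT3 (-0.26), CCT6A (-0.12) and CCT7 (-0.18), and for cele16h against Cele2h CCT3 (0.15), CCT4 (0.053), CCT5 (0.034), CCT6A (0.018) and CCT8 (0.15). Differences under the limit also turned sign, among them CCT7 for cele16h against Cele2h (0.45) and the median of Pac48h against Pac16h in block 4 alone (0.074). This alternative removes the total by construction. With index block 1 alone the combination had 2 subunits past the limit in place of 0, and the cause was not tested. Without the 50 most abundant genes the CCT share was 6403 ppm in control, 4984 in Pac16h, 4261 in Cele2h and 4616 in PacCele16h, since the denominator is smaller, and the ratios to control were 0.666 to 0.778. Among genes as abundant as CCT, an alternative added after seeing the data, the share of genes past the limit was 75.1, 68.0, 54.7, 96.9 and 52.6% against control. The single library code per condition and the unknown depth limit all values. No paired analysis was possible because each condition is 1 sample and cells of different conditions share no replicate.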

Other observations

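Cell cycle genes were read beside CCT across the cells of each condition. At the same total per cell, Pearson's r between the mean of the 8 subunits and the mean of 42 S phase genes was 0.40 in control cells, 0.29 in Pac16h, 0.28 in Pac48h and 0.38 in PacCele16h, and -0.01 in Cele2h and -0.04 in cele16h. For 52 G2/M phase genes it was 0.40, 0.19, 0.34 and 0.42, and -0.01 and -0.10 with celecoxib alone. Spearman's rho in the same order of conditions was 0.19, 0.28, 0.41, 0.36, 0.03 and 0.02 for S phase. For G2/M phase rho was 0.17, 0.24, 0.44, 0.46, 0.05 and -0.06. By rank, control cells thus lay below Pac16h, Pac48h and PacCele16h for both phases, which was not so by Pearson's r. The mean of the 7 Hsp70 and Hsp90 genes followed CCT in each condition, with r from 0.36 in Cele2h and cele16h to 0.72 in control cells. By Spearman's rho this range was narrower, from 0.42 in Cele2h to 0.57 in control cells, with PacCele16h at 0.56. These are descriptions over the 46 to 63 cells of each condition, which share their depth, and the differences between conditions were not tested.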
